A study of Homo sapiens with 18 samples.

Results

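The 10 genes described here are regulators of epithelial-mesenchymal transition (EMT) and cadherins of the cell surface: the transcription factors SNAI1, SNAI2, TWIST1, TWIST2, ZEB1, ZEB2 and PRRX1, and the cadherins CDH1, CDH2 and CDH11. They were taken by gene symbol, and each symbol matched 1 row in each of the 3 deposited tables, so that they are 10 of 58336 gene identifiers. Transcripts were measured by RNA sequencing of 18 libraries from the Ewing sarcoma lines TC-32, TC-71 and A673, which grew from tumours of bone and soft tissue driven by a fusion of EWSR1 to the ETS family gene FLI1. In each line, 3 libraries came from cells reverse transfected with a small interfering RNA against FLI1 (siFLI1) and 3 from cells given a negative control siRNA (siNeg), both at 20 nM, to deplete the EWSR1::FLI1 fusion. TC-32 and TC-71 cells were grown in RPMI medium and A673 cells in DMEM, so that medium and line cannot be told apart. Column names give 48 h for TC-32 and TC-71 and no time for A673. The line of the TC-32 and TC-71 libraries rests on the name of each table. The series also names the line ES-5838 and an siRNA siERG, which were not analysed here.

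EMT is the programme by which epithelial cells give up their junctions and become motile, and its core regulators are the zinc finger factors of the Snail and ZEB families and the basic helix-loop-helix factors TWIST1 and TWIST2, with the homeobox factor PRRX1 as a further inducer in mesenchymal cells. Snail and ZEB proteins bind E-box sequences in the promoter of CDH1 and repress it, and the exchange of CDH1 (E-cadherin) for CDH2 (N-cadherin) or CDH11 (OB-cadherin) is known as the cadherin switch. Ewing sarcoma cells are small round cells that express some genes of both epithelial and mesenchymal type, and the fusion binds the GGAA core that ETS factors recognise.

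Each TC-32 library held between 24102487 and 33669271 counts, each TC-71 library between 19685354 and 37234528, and each A673 library between 114564479 and 120993595. Nothing in the labels says that replicates are separate cultures, so p-values measure only the spread between these libraries, which may be technical. The FLI1 level left by the siRNA was 48.9% for TC-32, 35.9% for TC-71 and 23.5% for A673, with no overlap between the siRNAs in any line. All 8 Ewing sarcoma markers were detected in TC-32 and A673, and in TC-71 all but CD99, which is listed at 0 in its 6 libraries. TC-71 was counted with another tool than TC-32 and A673, and the cause of this 0 was not tested. Markers of blood cells summed to under 1 CPM (counts scaled to library size within each line) in every library. The summed level of 4 fibroblast markers (DCN, LUM, PDGFRA and COL1A1) was between 49.2 and 103 in the siNeg libraries. It was between 2116 and 3809 in the siFLI1 libraries, and its part in the results below was not tested. Most of that sum was COL1A1, with siFLI1 means of 3384 (TC-32), 2495 (TC-71) and 2351 CPM (A673). In A673 siFLI1 the means of DCN, LUM and PDGFRA were 1.00, 1.45 and 1.02 CPM. They were 6.35, 5.95 and 77.6 CPM in TC-32 siFLI1, and 33.7, 13.9 and 0.394 CPM in TC-71 siFLI1. In such bulk libraries, fewer cells of a type and less RNA per cell cannot be told apart.

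Promoter entries from RefSeq (GRCh38.p14) were matched for 5 of the 10 genes: ZEB1, ZEB2, PRRX1, TWIST2 and CDH2. The 250 bases before the start site are printed 5′ to 3′ on the strand of each of these genes. In TC-32, 4 of them rose and ZEB2 fell, and a link between the sequences and these changes was not tested. Capitals mark GGAA or its reverse complement TTCC, the ETS core, and CAGGTG or its reverse complement CACCTG, an E-box of the kind that Snail and ZEB proteins bind. The windows are chr10:31318966-31319215 on the plus strand for ZEB1, chr2:144520120-144520369 on the minus strand for ZEB2, chr1:170663881-170664130 on the plus strand for PRRX1, chr2:238847835-238848084 on the plus strand for TWIST2 and chr18:28177131-28177380 on the minus strand for CDH2.
ZEB1: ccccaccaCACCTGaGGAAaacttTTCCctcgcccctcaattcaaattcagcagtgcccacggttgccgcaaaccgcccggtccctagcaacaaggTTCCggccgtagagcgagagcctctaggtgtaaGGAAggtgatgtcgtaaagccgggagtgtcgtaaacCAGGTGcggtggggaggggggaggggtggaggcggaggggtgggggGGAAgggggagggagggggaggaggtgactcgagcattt
ZEB2: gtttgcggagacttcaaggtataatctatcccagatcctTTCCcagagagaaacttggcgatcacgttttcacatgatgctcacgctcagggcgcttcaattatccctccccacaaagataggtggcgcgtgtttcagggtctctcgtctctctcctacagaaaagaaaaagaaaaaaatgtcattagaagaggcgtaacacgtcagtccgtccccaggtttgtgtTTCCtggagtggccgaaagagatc
PRRX1: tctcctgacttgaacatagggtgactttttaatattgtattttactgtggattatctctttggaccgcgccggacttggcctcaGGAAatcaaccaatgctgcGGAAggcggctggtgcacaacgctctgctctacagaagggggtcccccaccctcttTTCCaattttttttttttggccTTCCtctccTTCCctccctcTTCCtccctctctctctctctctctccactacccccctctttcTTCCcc
TWIST2: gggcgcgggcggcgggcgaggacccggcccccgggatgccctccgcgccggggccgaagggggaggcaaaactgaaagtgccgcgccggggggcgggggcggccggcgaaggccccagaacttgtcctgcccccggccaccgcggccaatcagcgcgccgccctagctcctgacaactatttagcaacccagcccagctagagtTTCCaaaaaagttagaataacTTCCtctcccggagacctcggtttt
CDH2: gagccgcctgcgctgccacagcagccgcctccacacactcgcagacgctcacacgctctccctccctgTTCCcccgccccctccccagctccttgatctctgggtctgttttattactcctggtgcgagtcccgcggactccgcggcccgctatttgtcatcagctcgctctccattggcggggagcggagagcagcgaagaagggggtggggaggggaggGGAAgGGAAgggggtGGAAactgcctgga
The PRRX1 window held 7 matches to GGAA or TTCC, ZEB1 5, CDH2 4, and ZEB2 and TWIST2 2 each. Over 35116 windows of the same length in the RefSeq table, 92.7% held at least 1 match and the median was 3. Of the printed windows, that of ZEB1 alone held matches to CAGGTG or CACCTG, at -242 and -85 from its start site. Of all windows, 17.5% held such a match. ZEB1 and CDH2 also had entries at other start sites, and the windows printed are those nearest the canonical transcript start. The other ZEB1 windows held 2 to 4 matches to GGAA or TTCC. Among them, chr10:31318167-31318416 held 1 match to CAGGTG or CACCTG and the rest held none. The other CDH2 window held 4 matches to GGAA or TTCC and no E-box. A match is a description of these letters and not a bound site. SNAI1, SNAI2, TWIST1, CDH1 and CDH11 were not matched.

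SNAI2 rose in every line, and its relative SNAI1 fell in TC-32 and TC-71. SNAI1 (ENSG00000124216, chr20:49982980-49988886, plus strand) and SNAI2 (ENSG00000019549, chr8:48917598-48921740, minus strand) encode the Snail and Slug repressors. Levels are given in CPM, and positions are from GENCODE release 44 (GRCh38). CPM were scaled within each line and TC-71 was counted with another tool, so comparisons of level between lines are approximate. SNAI2 stood at 0.670, 0.678 and 0.547 CPM in the siNeg libraries of TC-32, from 16, 18 and 13 counts, and at 21.0, 20.4 and 22.9 CPM in siFLI1. This was a change of 5.07 ± 0.139 (SE) on the log2 scale (edgeR adjusted p = 1.29e-20), or 33.6-fold. The largest change of any member in TC-32 therefore began from a level near the floor of detection. In TC-71, SNAI2 was already present in siNeg, at 6.61, 6.69 and 7.22 CPM, and reached 51.4, 53.5 and 55.1 CPM, the highest level of the 6 groups. The log2 fold change there was 2.96 (SE 0.0754, edgeR adjusted p = 3.88e-24). A673 went from 1.47, 1.30 and 1.63 CPM to 9.04, 8.78 and 9.58 CPM, a change of 2.64 ± 0.0894 (SE) on the log2 scale (edgeR adjusted p = 1.57e-13). The siFLI1 libraries lay above the siNeg libraries in all 3 lines.

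SNAI1 did not follow SNAI2. In TC-32 its siNeg libraries held 5.74, 6.41 and 6.52 CPM and its siFLI1 libraries 3.99, 3.86 and 3.384 CPM, a change of -0.73 ± 0.131 (SE) on the log2 scale (edgeR adjusted p = 1.84e-05). In TC-71 the values were 9.36, 6.59 and 6.14 CPM in siNeg against 2.50, 2.41 and 2.67 CPM in siFLI1, a change of -1.54 ± 0.156 (SE) on the log2 scale (edgeR adjusted p = 8.73e-10). Both falls separated the libraries without overlap, although siNeg replicate 1 of TC-71 stood above the other 2. In A673 the libraries overlapped, at 4.23, 4.94 and 4.50 CPM in siNeg and 4.23, 4.34 and 4.61 CPM in siFLI1, and the change was -0.054 (edgeR adjusted p = 0.571) on the log2 scale. Per kilobase of the canonical transcript, SNAI2 made up 7.39% ± 1.13 of the sum of SNAI1 and SNAI2 in TC-32 siNeg (SD, n = 3) and 81.7% ± 2.09 in siFLI1. TC-71 moved from 42.6% ± 6.32 to 94.3% ± 0.228, and A673 from 20.1% ± 2.73 to 61.9% ± 0.623. The more abundant of the pair was thus SNAI1 in every siNeg group and SNAI2 in every siFLI1 group.

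**Figure D1:**
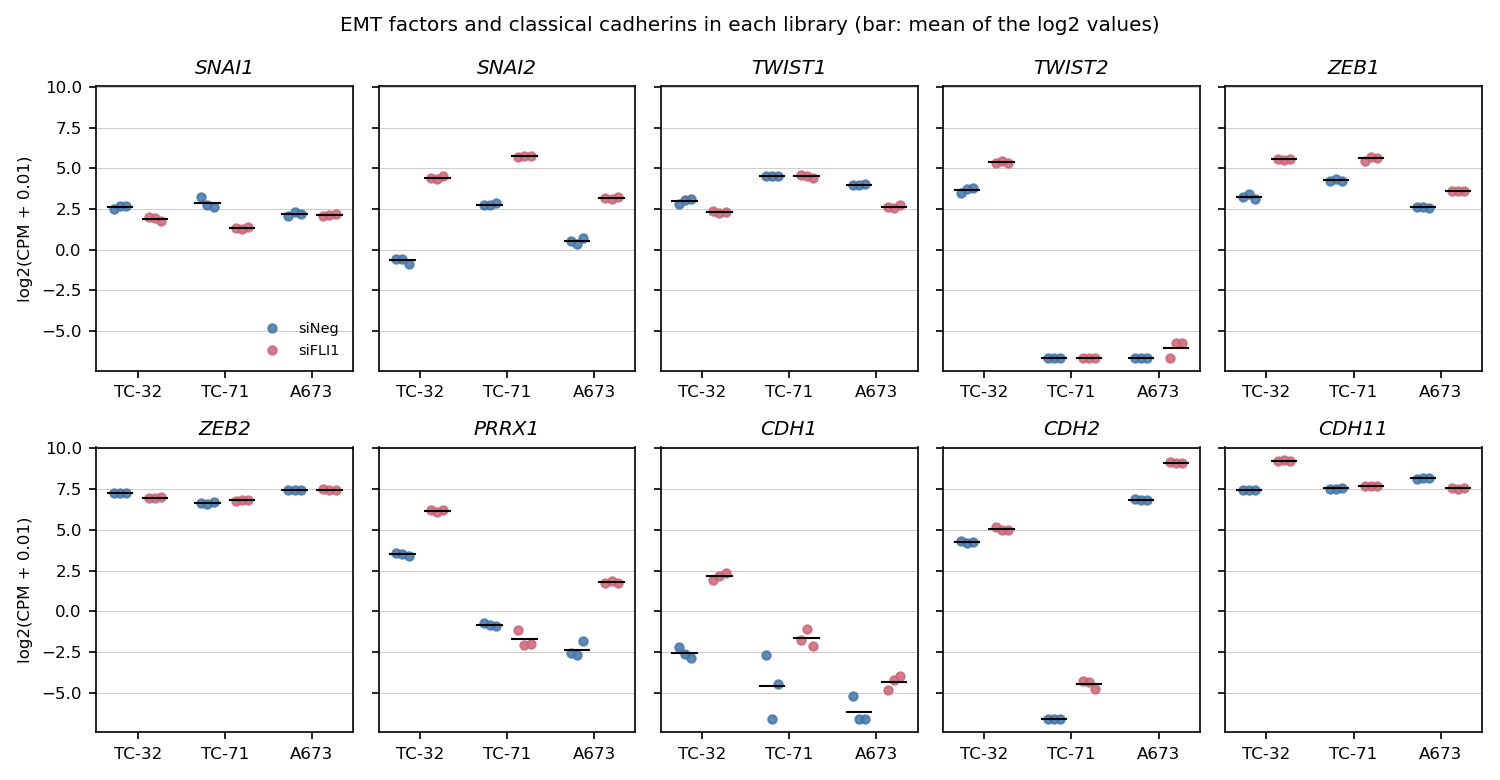
Level of each member in each library, as log2 of CPM plus 0.01 (vertical axis), by line (horizontal axis), with siNeg in blue, siFLI1 in red and a bar at the mean of the log2 values. SNAI2 and ZEB1 lie higher in siFLI1 in all 3 lines, while CDH11 lies higher in TC-32 and lower in A673.

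TWIST1 fell in 2 lines, and TWIST2 was expressed and rose in 1. TWIST1 (ENSG00000122691, chr7:19020991-19117636, minus strand) and TWIST2 (ENSG00000233608, chr2:238848032-238910534, plus strand) encode closely related helix-loop-helix factors of the mesoderm. TWIST1 held 6.87, 8.22 and 8.84 CPM in the siNeg libraries of TC-32 and 5.25, 4.81 and 4.97 CPM in siFLI1, a change of -0.67 ± 0.119 (SE) on the log2 scale (edgeR adjusted p = 1.52e-05). The fall was larger in A673, from 15.7, 15.9 and 16.6 CPM to 6.11, 5.97 and 6.59 CPM, with a change of -1.37 ± 0.0597 (SE) on the log2 scale (edgeR adjusted p = 4.25e-12). In neither line did the libraries overlap. TC-71, which had the most TWIST1, overlapped, with 23.3, 23.4 and 23.0 CPM in siNeg and 23.7, 23.0 and 21.5 CPM in siFLI1 (log2 fold change -0.035, edgeR adjusted p = 0.665).

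TWIST2 set TC-32 apart from the other lines. Its siNeg libraries of TC-32 held 11.4, 13.1 and 14.01 CPM and its siFLI1 libraries 39.7, 44.1 and 40.8 CPM, a change of 1.69 ± 0.0769 (SE) on the log2 scale (edgeR adjusted p = 3.65e-16) with no overlap. TC-71 had 0 counts in all 6 libraries, where the limit that a count of 0 allows is 3 counts, or between 0.0808 and 0.152 CPM. A673 had 0 counts in siNeg and 0, 1 and 1 in siFLI1, with a limit between 0.0246 and 0.0262 CPM. A change of TWIST2 was not detectable at this depth in TC-71 or A673, where it had too few counts to test. These limits cover counting error only. In TC-32, TWIST2 made up 66.2% ± 0.541 (SD, n = 3) of TWIST1 and TWIST2 per kilobase in siNeg and 90.9% ± 0.781 in siFLI1.

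ZEB1 rose in every line, and ZEB2 moved little between the siRNAs. ZEB1 (ENSG00000148516, chr10:31318495-31529814, plus strand) and ZEB2 (ENSG00000169554, chr2:144364364-144521057, minus strand) encode repressors with zinc fingers at both ends. ZEB1 was at 9.59, 10.6 and 8.50 CPM in TC-32 siNeg and at 47.2, 45.4 and 47.9 CPM in siFLI1, a change of 2.29 ± 0.0770 (SE) on the log2 scale (edgeR adjusted p = 8.69e-19). TC-71 went from 19.0, 20.3 and 18.6 CPM to 44.6, 52.7 and 49.8 CPM, a change of 1.35 ± 0.0698 (SE) on the log2 scale (edgeR adjusted p = 1.11e-16). In A673 the values were 6.08, 6.27 and 5.88 CPM against 12.3, 12.1 and 12.04 CPM, a change of 1.00 ± 0.0592 (SE) on the log2 scale (edgeR adjusted p = 2.27e-10). No siFLI1 library overlapped a siNeg library in any line. With SNAI2, ZEB1 was the other member that rose in all 3 lines, and it reached similar levels in TC-32 and TC-71 from different siNeg levels.

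ZEB2 fell slightly in TC-32, rose slightly in TC-71 and overlapped in A673. Its TC-32 libraries held 156, 157 and 154 CPM in siNeg and 126, 126 and 129 CPM in siFLI1, a change of -0.29 ± 0.0431 (SE) on the log2 scale (edgeR adjusted p = 1.16e-06). Its TC-71 libraries held 99.4, 96.9 and 106 CPM in siNeg and 108, 116 and 114 CPM in siFLI1, a change of 0.16 ± 0.0482 (SE) on the log2 scale (edgeR adjusted p = 0.00473). Without siNeg replicate 2, the TC-71 value was 0.12 and no longer past the threshold (edgeR adjusted p = 0.0522). In A673, 173, 176 and 177 CPM stood against 181, 176 and 178 CPM (log2 fold change 0.028, edgeR adjusted p = 0.486), and scaling by library size alone gave -0.075. ZEB1 made up 8.75% ± 0.827 (SD, n = 3) of ZEB1 and ZEB2 per kilobase in TC-32 siNeg and 36.5% ± 0.447 in siFLI1. TC-71 moved from 23.1% ± 1.51 to 40.5% ± 1.20, and A673 from 5.14% ± 0.187 to 9.60% ± 0.0668. By the summed length of all exons in place of the canonical transcript, an alternative chosen after seeing the data, ZEB1 reached 52.7% and 56.8% in the siFLI1 libraries of TC-32 and TC-71. Which of the 2 was more abundant in those groups thus depended on the length used, whereas the direction of the share did not.

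PRRX1, a homeobox factor of limb and facial mesenchyme, rose in TC-32 and A673 and not in TC-71. PRRX1 (ENSG00000116132, chr1:170662728-170739421, plus strand) held 12.1, 11.7 and 10.4 CPM in TC-32 siNeg and 74.3, 68.1 and 73.6 CPM in siFLI1, a change of 2.66 ± 0.0702 (SE) on the log2 scale (edgeR adjusted p = 6.22e-21). A673 started from 0.158, 0.148 and 0.270 CPM, or 19, 18 and 32 counts, and reached 3.35, 3.60 and 3.34 CPM, a change of 4.16 ± 0.166 (SE) on the log2 scale (edgeR adjusted p = 1.32e-12). The larger fold in A673 ended at a lower level than the TC-32 control. TC-71 held 16, 11 and 15 counts in siNeg and 11, 6 and 9 in siFLI1, which is 0.594, 0.558 and 0.520 CPM against 0.450, 0.229 and 0.242 CPM. These libraries did not overlap and were lower in siFLI1, but the change of -0.89 ± 0.409 (SE) on the log2 scale missed the threshold (edgeR adjusted p = 0.0502). The adjusted p ranged from 0.0249 to 0.185 over the alternatives and passed in 4 of 13.

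CDH1 remained rare in all groups, yet had more counts in siFLI1 than in siNeg in each line. CDH1 (ENSG00000039068, chr16:68737292-68835537, plus strand) encodes the cadherin of epithelial adherens junctions. In TC-32 it had 5, 4 and 3 counts in siNeg and 98, 149 and 152 in siFLI1, which is 0.162 ± 0.0427 against 4.44 ± 0.694 CPM (SD, n = 3). The log2 fold change was 4.74 (SE 0.291, edgeR adjusted p = 1.42e-13). From pooled counts scaled to depth, the ratio was 27.6, with an exact 95% interval of 15.6 to 53.9 that covers counting error only. TC-71 had 4, 0 and 1 counts in siNeg and 7, 12 and 8 in siFLI1, a pooled ratio of 4.65 (1.76 to 15.5). A673 had 2, 0 and 0 against 3, 5 and 6, a pooled ratio of 7.27 (1.67 to 65.9). The last 2 lines had too few counts for the test across genes, and their libraries did not overlap. With no low-count filter, CDH1 was called higher in TC-71 (2.17, edgeR adjusted p = 0.00928) and was not past the threshold in A673 (2.64, edgeR adjusted p = 0.0510). In TC-32 siFLI1, CDH1 per kilobase was still the lowest of the 10 genes, at 0.923 CPM per kilobase. SNAI2 and ZEB1, known repressors of CDH1, rose in the same libraries.

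CDH2 rose in TC-32 and A673 and was all but absent from TC-71. CDH2 (ENSG00000170558, chr18:27932879-28177946, minus strand) encodes the cadherin of neural and many mesenchymal cells. In TC-32 it went from 19.8, 18.2 and 18.8 CPM to 36.2, 31.6 and 31.3 CPM, a change of 0.80 ± 0.0729 (SE) on the log2 scale (edgeR adjusted p = 3.33e-10). In A673 it went from 117, 116 and 114 CPM to 580.4, 541 and 546 CPM, a change of 2.27 ± 0.0380 (SE) on the log2 scale (edgeR adjusted p = 2.31e-17). Neither line showed any overlap. TC-71 had 0 counts in each siNeg library and 1 in each siFLI1 library, below the 3 counts that a count of 0 allows, so no fold is given.

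CDH11 rose in TC-32, rose slightly in TC-71 and fell in A673. CDH11 (ENSG00000140937, chr16:64943753-65126112, minus strand) encodes a cadherin of bone-forming and other mesenchymal cells. Its TC-32 libraries held 176, 172 and 171 CPM in siNeg and 609.5, 615 and 600.0 CPM in siFLI1, a change of 1.81 ± 0.0391 (SE) on the log2 scale (edgeR adjusted p = 1.14e-22). TC-71 held 183, 183 and 194 CPM against 206, 209.6 and 209 CPM, a change of 0.16 ± 0.0424 (SE) on the log2 scale (edgeR adjusted p = 0.00146). A673 held 285, 294 and 290.4 CPM in siNeg and 189, 182 and 189 CPM in siFLI1, a change of -0.63 ± 0.0347 (SE) on the log2 scale (edgeR adjusted p = 8.61e-11). The libraries were separate in each line, below in A673 and above in the others. CDH2 made up 40.0% ± 0.589 of CDH2 and CDH11 per kilobase in A673 siNeg and 83.3% ± 0.432 in siFLI1. In TC-32 that share was 15.5% ± 0.438 in siNeg and 8.33% ± 0.615 in siFLI1 (SD, n = 3), the opposite direction. In TC-71 it was 0% and 0.0284%, so CDH11 was practically the whole of the pair.

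**Figure D2:**
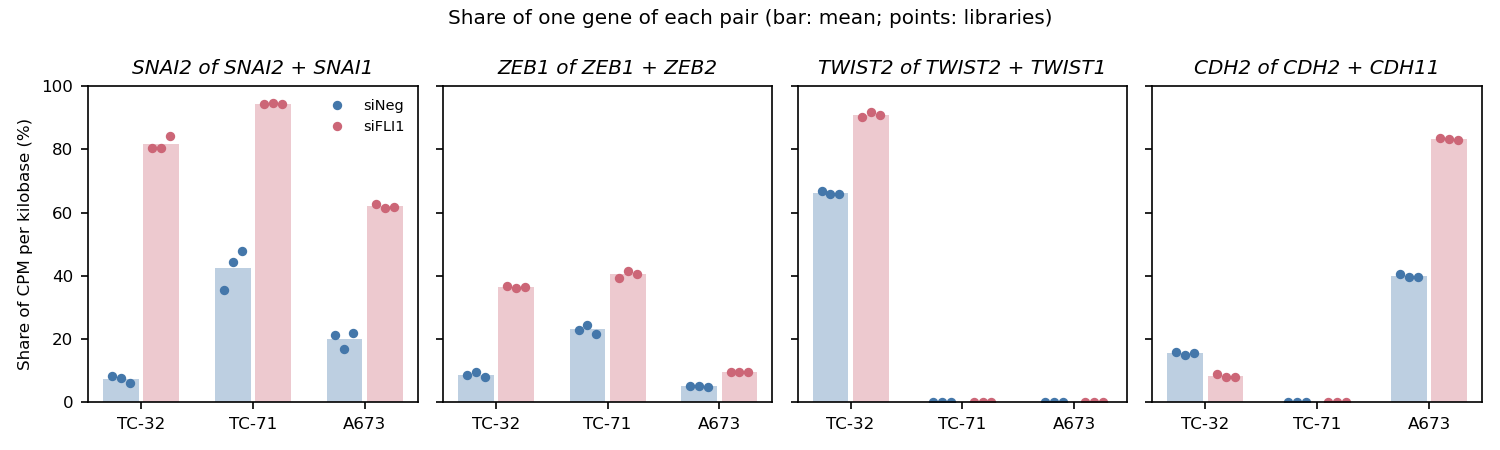
Share of one gene of each related pair, in percent of the summed CPM per kilobase (vertical axis), by line (horizontal axis), with a bar at the mean, points for libraries, siNeg in blue and siFLI1 in red. The share of SNAI2 and of ZEB1 is higher in siFLI1 in all 3 lines, while the share of CDH2 is higher in A673 and lower in TC-32.

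Read together, all 10 members were tested in TC-32, and 7 were higher and 3 lower in siFLI1. This stands against a background in which 81.4% of the 16227 genes tested in TC-32 were called (41.3% higher and 40.1% lower), and in which 82.6% had no overlap between the siRNAs, as did all 10 members. In TC-71, 7 members were tested, of which 4 were higher, 1 lower and 2 not past the threshold. Of 17085 genes tested there, 71.9% were called (36.8% higher and 35% lower), and 73.8% had no overlap, against 6 of the 7 members. In A673, 8 members were tested, of which 4 were higher, 2 lower and 2 not past the threshold. Of 18444 genes tested there, 71% were called (35.6% higher and 35.4% lower), and 73.6% had no overlap, against 6 of the 8 members. The counts called in TC-71 and A673 were thus close to the background. Members that passed the filter on low counts include some that passed through 1 siRNA group alone. These are CDH1 in TC-32, through siFLI1, and PRRX1 in TC-71, through siNeg. PRRX1 is 1 of the 6 members without overlap in TC-71. The same holds for some genes of the lists below.

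Changes of at least 2-fold past the same threshold were less common among all genes. In TC-32, 6 members (SNAI2, TWIST2, ZEB1, PRRX1, CDH1 and CDH11) rose by at least 2-fold, against 22% of the genes tested, and none fell by as much, against 15.6%. In TC-71, SNAI2 and ZEB1 rose by at least 2-fold, against 14.1% of genes, and SNAI1 fell by as much, against 9.38%. In A673, SNAI2, ZEB1, PRRX1 and CDH2 rose by at least 2-fold, against 13.3%, and TWIST1 fell by as much, against 9.87%. ZEB1 in A673 stood at the threshold itself, with a fold of 2.00. Over the members tested, the log2 fold change had a median of 1.75 (TC-32), 0.16 (TC-71) and 0.51 (A673), beside 0.022, 0.018 and -0.0066 for all genes tested. Of the 7 members tested in all 3 lines, SNAI2 and ZEB1 were higher in each, CDH11 was called in each with mixed directions, and none was lower in each.

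**Figure D3:**
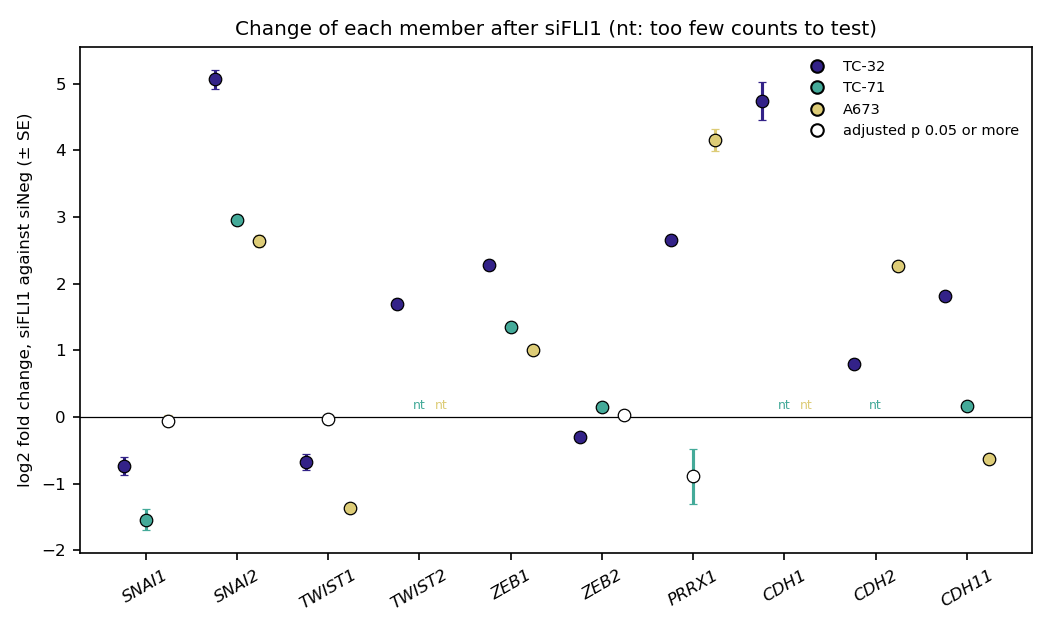
Log2 fold change of siFLI1 against siNeg (vertical axis) for each member (horizontal axis), with bars of 1 SE, in TC-32, TC-71 and A673. Open points missed the threshold and nt marks members with too few counts to test. SNAI2 and ZEB1 are above 0 in all 3 lines, and ZEB2, PRRX1 and CDH11 lie on both sides of 0.

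Ordered by CPM per kilobase of canonical transcript, CDH11 was the most abundant member in all 3 siNeg groups. In TC-32 siNeg the order was CDH11 (25.7), ZEB2 (16.8), TWIST2 (9.57), TWIST1 (4.89), CDH2 (4.71), SNAI1 (3.65), PRRX1 (2.80), ZEB1 (1.61), SNAI2 (0.290) and CDH1 (0.0337). Of these neighbours, TWIST1 and CDH2 overlapped. In TC-32 siFLI1 the order was CDH11 (90.5), TWIST2 (30.9), PRRX1 (17.7), ZEB2 (13.7), SNAI2 (9.82), CDH2 (8.22), ZEB1 (7.89), TWIST1 (3.07), SNAI1 (2.20) and CDH1 (0.923), with an overlap of CDH2 and ZEB1. PRRX1 and SNAI2 therefore moved up past ZEB2 and SNAI1 respectively. In TC-71 siNeg, CDH11 (27.8), TWIST1 (14.3), ZEB2 (10.9) and SNAI1 (4.32) led, ZEB1 (3.25) and SNAI2 (3.14) overlapped, and PRRX1 (0.137) followed. In TC-71 siFLI1, SNAI2 (24.5) stood second to CDH11 (31.0), before TWIST1 (13.9), ZEB2 (12.1), ZEB1 (8.26) and SNAI1 (1.48). The members below these in TC-71 held at most 16 counts in a library. In A673 siNeg, CDH11 (43.1), CDH2 (28.7), ZEB2 (18.9), TWIST1 (9.85), SNAI1 (2.67), ZEB1 (1.02), SNAI2 (0.672) and PRRX1 (0.0472) did not overlap one another. In A673 siFLI1 CDH11 was not first, with CDH2 (138), CDH11 (27.8) and ZEB2 (19.3) ahead of SNAI2 (4.19) and TWIST1 (3.82), which overlapped. SNAI1 (2.58), ZEB1 (2.05) and PRRX1 (0.845) came next. By the summed length of all exons, also chosen after seeing the data, CDH11 stayed first in the 3 siNeg groups and in TC-32 siFLI1, and CDH2 in A673 siFLI1. In TC-71 siFLI1 the order turned, with SNAI2 (16.3) and CDH11 (15.7) overlapping. ZEB2, the member with the greatest summed exon length, stood lower by that length in every group but A673 siFLI1.

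Lines differed in the effect of siFLI1 on every member that could be compared. An interaction test in 1 model of all 18 libraries was past the threshold for 8 of 8 members between TC-32 and A673, 7 of 7 between TC-32 and TC-71 and 7 of 7 between A673 and TC-71. The background was high, with 62.1%, 53.6% and 51.6% of 19610 genes differing in the same order of pairs. Unlike the members, those genes were not limited to genes tested in both lines, so the shares are not over like sets. The pairs also share lines, so their differences are not independent. CDH11 was called in opposite directions in TC-32 and A673, with a difference of 2.47 ± 0.0521 (SE) between the log2 fold changes (edgeR adjusted p = 1.20e-28). It was also called in opposite directions in A673 and TC-71, with a difference of -0.82 (SE 0.0519, edgeR adjusted p = 1.92e-15). ZEB2 was called in opposite directions in TC-32 and TC-71, with a difference of -0.46 (SE 0.0598, edgeR adjusted p = 4.98e-08). PRRX1 had the largest difference of all, 5.02 between A673 and TC-71 (SE 0.412, edgeR adjusted p = 1.50e-12), from a gene with at most 16 counts per library in TC-71. In that line PRRX1 passed the filter on low counts through siNeg, the group where it was higher. The differences of SNAI2 (-0.35) and ZEB2 (-0.16) between A673 and TC-71 were the weakest, with edgeR adjusted p of 0.0138 and 0.0189. Both missed the threshold when no low-count filter was used (-0.31 and -0.12) or when the 12 libraries of those lines were fitted alone (-0.28 and -0.089). TC-71 was counted with another tool, so tool and line cannot be told apart in these pairs.

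Other regulators linked to EMT moved in both directions. Of 23 such genes, 9 were higher and 2 lower of 13 tested in TC-32, 8 higher and 2 lower of 14 in TC-71, and 8 higher and 6 lower of 14 in A673. The median log2 fold changes were 0.90, 0.20 and 0.42. The number called was close to the 81.4% and 71.9% of all genes in TC-32 and TC-71, and was 14 of 14 in A673, where 71% of all genes were called. CTBP1, FOXC1, GRHL1 and GRHL3 were among those higher in every line, although the call of GRHL1 in A673 was lost under 1 of 14 alternatives. FOXC1, a forkhead factor of mesoderm that can promote EMT, went from 1.25 ± 0.389 to 19.6 ± 1.76 CPM in TC-32 (SD, n = 3), a change of 3.95 ± 0.144 (SE) on the log2 scale (edgeR adjusted p = 1.14e-17). Its log2 fold change was 2.31 in TC-71 and 3.35 in A673. GRHL1 and GRHL3 are grainyhead factors, known as keepers of the epithelial state, and moved the same way as FOXC1. GRHL3 rose by a log2 fold change of 2.93 in TC-71, from 0.417 ± 0.177 to 3.06 ± 0.174 CPM, and GRHL1 by 1.20 in TC-32. ESRP1, a splicing regulator of epithelial cells, fell by 2.04 in TC-71 on the log2 scale, from 4.07 ± 0.251 to 1.03 ± 0.387 CPM. Among E-proteins, the dimer partners of TWIST factors, TCF12 fell in A673 (-0.84) and rose in TC-71 (0.26). TCF3 fell in TC-32 (-0.51) and A673 (-0.21), and TCF4 rose in TC-32 (0.90) and fell in A673 (-0.58).

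Genes of epithelial junctions and keratins were often too rare to test, and those tested were more often higher than lower. The defining epithelial gene EPCAM had at most 6 counts and was not tested in TC-32, and was not past the threshold in TC-71 (-0.71) or A673 (1.04). Of 30 such genes, 10 were higher and 2 lower of 15 tested in TC-32, 10 and 3 of 15 in TC-71, and 13 and 3 of 20 in A673, with median log2 fold changes of 1.13, 1.20 and 1.20. Among all genes tested, 41.3%, 36.8% and 35.6% were higher. Some genes passed the filter on low counts through 1 siRNA group alone, so these counts and medians depend in part on the filter. KRT7 in TC-32 (0.0281 CPM in siNeg, 2.78 in siFLI1), PKP3 in TC-71 (0.0285, 0.548) and SPINT2 in A673 (0.0303, 1.30) passed through siFLI1. CRB3 in TC-71 (0.711, 0.199) passed through siNeg. CLDN4, LLGL2, PPL, KRT8, KRT18, MUC1 and SPINT1 were higher in all 3 lines and CGN, the tight junction protein cingulin, lower in all 3. CLDN4, a tight junction claudin, went from 0.183 ± 0.0179 to 20.9 ± 1.45 CPM in A673 (SD, n = 3), a change of 6.83 ± 0.107 (SE) on the log2 scale (edgeR adjusted p = 9.98e-18), with 3.04 in TC-32 and 1.77 in TC-71. PPL, the desmosomal linker periplakin, rose by 4.21 in TC-32 and 4.81 in A673 on the same scale. CGN fell from 5.02 ± 0.866 to 0.973 ± 0.179 CPM in TC-32, a log2 fold change of -2.35, and by 0.31 in TC-71 and 0.39 in A673 on the log2 scale. MIR200CHG, the host gene of a miRNA pair that targets ZEB1 and ZEB2, held 0 counts in every library of TC-32 and A673. In TC-71 it held at most 7 counts in a library and was not tested.

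Mesenchymal structural genes rose almost throughout. Of 20 genes, 19 were higher and none lower in TC-32, where TNC had a log2 fold change of 0.0021 (edgeR adjusted p = 0.961). In TC-71, 18 were higher and 1 lower of 19 tested, and in A673 19 were higher and 1 lower of 20. Of all genes tested, 41.3%, 36.8% and 35.6% were higher. The median log2 fold changes were 3.37, 4.52 and 2.15, and 17 genes were higher in all 3 lines. FN1, which encodes fibronectin, went from 29.2 ± 2.42 to 7901 ± 304 CPM in TC-71 (SD, n = 3), a change of 8.07 ± 0.0601 (SE) on the log2 scale (edgeR adjusted p = 6.16e-36). FN1 rose by 1.49 in TC-32 and 0.96 in A673 on the log2 scale, from siNeg means of 11559 and 7320 CPM. On the same scale, LOX, a crosslinker of collagen, rose by 6.69 in A673 and CD44, the hyaluronan receptor, by 6.52. COL1A2 rose by 6.13 in TC-32, from 0.192 ± 0.0932 to 13.6 ± 0.849 CPM. THY1, a surface glycoprotein of stromal cells, rose in TC-32 (0.41) and fell in TC-71 (-0.27) and A673 (-0.67). The list shares COL1A1 with the fibroblast markers. COL1A1 made up most of the fibroblast marker sum in siFLI1, so the rise of that sum is not a separate observation.

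**Figure D4:**
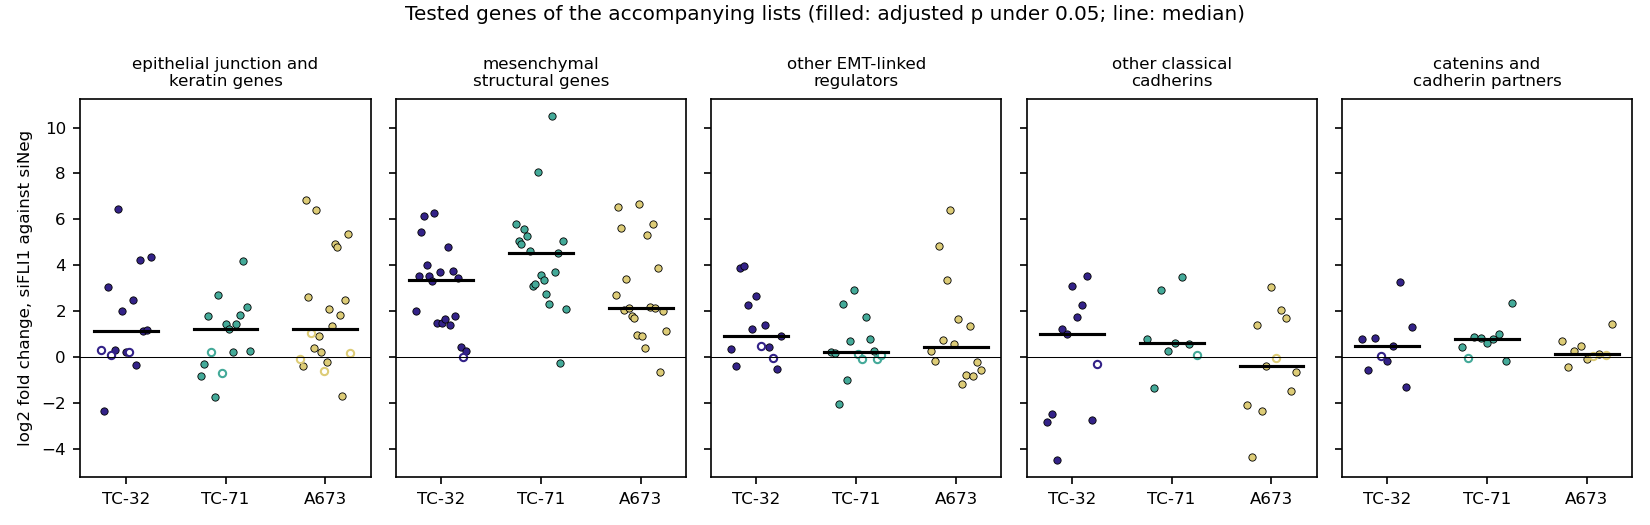
Log2 fold change of siFLI1 against siNeg (vertical axis) for the tested genes of 5 accompanying lists, by line (horizontal axis), with filled points past the threshold and a line at the median. The mesenchymal list has the highest median in every line, and the other cadherins lie on both sides of 0.

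Other classical cadherins moved in both directions. Of 15 genes, 6 were higher and 4 lower of 11 tested in TC-32, 6 and 1 of 8 in TC-71, and 4 and 6 of 11 in A673, with median log2 fold changes of 0.98, 0.59 and -0.42. The 10, 7 and 10 called stand beside 81.4%, 71.9% and 71% of all genes. CDH3, the P-cadherin of basal epithelium, was higher in all 3 lines, from 16.1 ± 0.293 to 136 ± 5.39 CPM in TC-32 (SD, n = 3), with log2 fold changes of 3.08, 3.48 and 3.03. CDH12 was lower in all 3, from 30.4 ± 0.959 to 1.47 ± 0.0765 CPM in A673, with log2 fold changes of -2.50, -1.36 and -4.37. CDH10, another type II cadherin of the nervous system, was lower in TC-32 (-2.86) and A673 (-2.09) and higher in TC-71 (0.79). CDH6, the kidney cadherin, rose in TC-32 (3.52) and A673 (1.70) and had at most 1 count per library in TC-71. CDH20 fell by 4.51 in TC-32 on the log2 scale, from 2.90 ± 0.227 to 0.129 ± 0.0663 CPM.

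Catenins join cadherins to actin. Of 12 catenins and partners, 5 were higher and 3 lower of 9 tested in TC-32, 7 and 1 of 9 in TC-71, and 5 and 2 of 9 in A673, with median log2 fold changes of 0.49, 0.77 and 0.14. The 8, 8 and 7 called stand beside the same background of 81.4%, 71.9% and 71%. Scaled by library size alone, 3 rather than 5 were higher in A673. ARVCF, VCL (vinculin) and ADAM10, a protease that cuts cadherins, were higher in all 3 lines, as was JUP (plakoglobin), whose call in A673 was lost under 8 of 14 alternatives. VCL rose from 167 ± 4.46 to 861 ± 20.6 CPM in TC-71 (SD, n = 3), a change of 2.37 ± 0.0423 (SE) on the log2 scale (edgeR adjusted p = 7.31e-28), with 1.29 in TC-32 and 1.44 in A673. The log2 fold change of JUP was 3.25 in TC-32 and 1.01 in TC-71, but 0.14 in A673 (edgeR adjusted p = 0.0467). CTNNB1, which encodes beta-catenin, rose in TC-71 (0.60) and fell in TC-32 (-0.20) and A673 (-0.11). Its call in A673 was lost under 4 of 14 alternatives. AFDN, listed as MLLT4, fell in TC-32 (-0.56) and A673 (-0.44), and PKP4 fell in TC-32 (-1.30) and TC-71 (-0.19).

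Several members share exon bases with other genes, and whether counting used strand is not given in the sources used here. The overlap is on the opposite strand for SNAI2 (3.69% of exon bases), TWIST1 (7.06%), ZEB1 (4.58%), ZEB2 (4.97%), CDH1 (5.71%) and CDH2 (3.58%), and on the same strand for CDH11 (1.91%). Without strand, the reads of such partners cannot be told apart. ZEB1-AS1, the antisense partner of ZEB1, had 0.506 ± 0.178 CPM in TC-32 siNeg and 1.36 ± 0.246 CPM in siFLI1 (SD, n = 3), a change of 1.43 ± 0.317 (SE) in log2 units (edgeR adjusted p = 0.000223), and had 0.28 in TC-71 and -0.11 in A673, neither past the threshold. ZEB2-AS1 fell in A673 (-0.99). The gene ENSG00000278893, which overlaps CDH11 on the same strand, rose in TC-32 (2.16) and fell in A673 (-1.77), the directions of CDH11. Its level was at most 1.75 CPM in a group mean, against 173 CPM or more for CDH11. SNAI1, TWIST2 and PRRX1 share no exon bases with another gene.

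The genes whose pattern was most like each member were found by the root mean square difference of centred log2 CPM over the 6 group means, among 19610 genes and for the 8 members whose mean log2 CPM was 1 or more. ZEB1 lay closest to SERPING1, which encodes the C1 inhibitor, at 0.172, and to LRRC75B at 0.201. The median over all genes was 1.33 for ZEB1. CDH11 lay closest to CCDC30 (0.180) and CFAP54 (0.188), and TWIST1 to DOK6 (0.0852) and RP11-85F14.5 (0.142). ZEB2 lay closest to PRCP (0.0662) and PSME1 (0.0671), for a gene whose log2 level had an SD of 0.52 over the 6 groups. SNAI2 was less closely matched, by AC144831.1 (0.390) and IMPG2 (0.495), as were PRRX1, by MYBPH (0.568) and SORBS2 (0.571), and CDH2, by SOX9 (0.808) and FBN2 (0.905). SNAI1 lay closest to RP11-1099M24.6 (0.108) and RP5-1086D14.5 (0.169). The 6 group means differ by line as well as by siRNA, so likeness here is not likeness of the response to siFLI1 alone.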

How the data were processed

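RNA libraries were made with a stranded mRNA kit per the labels. The authors deposited expected counts for the lines TC-32 and A673, with RSEM in the table names, and read counts for TC-71, with Subread in the table name. Neither is scaled to depth. The submitters' processing notes name GRCh38 (hg38), cutadapt 4.4, STAR 2.7.3, featureCounts, Subread 2.0.3 and limma 3.38.3. The annotation release, strand setting and filters are not given in the sources used here.

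Expected counts were rounded. Each line was fitted over all genes in R 4.3.3 with edgeR 4.0.16 (filterByExpr, TMM, robust quasi-likelihood test, Benjamini-Hochberg, adjusted p under 0.05). Log2 fold changes use a prior count of 0.125, and SEs come from the unshrunken coefficients. Interactions between lines were tested in 1 model of 18 libraries. The fits were also run on simulated counts in which far fewer genes changed than were called here. That run cannot speak to scaling or error rates under so broad a change. Replicates differed by more than sampling noise (chi-square per degree of freedom of at least 2.45).

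CPM are TMM-scaled within a line. CPM per kilobase use the GENCODE 44 canonical transcript, and 57754 of 58336 identifiers were found there. The total count per library sets the precision, and 3 counts is the limit that a count of 0 allows. CDH1 ratios carry exact binomial 95% intervals.

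All 10 members are named. In each accompanying list and line, the genes named are up to 2 higher and 2 lower with the largest changes and a mean log2 CPM of at least 0, genes called in all 3 lines first. Other genes of a list were named after their values were seen. Some genes that this rule names are not reported here. The members and lists were chosen with earlier results of these data known. Alternatives changed the scaling (RLE factors or none), the low-count filter (none, or 10 counts on average), the tool (DESeq2 1.42.0, or voom in limma 3.58.1), the rounding and the block (the replicate number). Others left out single libraries or used 12 libraries for a pair of lines.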

Additional observations from a re-analysis of the deposited data

Results flagged for a closer look

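The effect of siFLI1 on members tested in both lines differed past the threshold in 22 of 22 comparisons (edgeR interaction test). Of the 19610 genes in the model of 18 libraries, 51.6% to 62.1% did so, depending on the pair. Those genes were not limited to genes tested in both lines, so the shares are not over like sets. The pairs also share lines, so their differences are not independent. Each value is the log2 fold change in the first line minus that in the second.

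For TC-32 minus A673, SNAI2 (2.46), CDH11 (2.47), ZEB1 (1.31) and TWIST1 (0.72) had a more positive effect in TC-32, and CDH2 (-1.44), PRRX1 (-1.46), SNAI1 (-0.66) and ZEB2 (-0.30) a more positive effect in A673. For TC-32 minus TC-71, PRRX1 (3.56), SNAI2 (2.11), CDH11 (1.65), ZEB1 (0.93) and SNAI1 (0.80) had a more positive effect in TC-32, and TWIST1 (-0.65) and ZEB2 (-0.46) in TC-71. For A673 minus TC-71, PRRX1 (5.02) and SNAI1 (1.45) had a more positive effect in A673, and TWIST1 (-1.37), CDH11 (-0.82), ZEB1 (-0.38), SNAI2 (-0.35) and ZEB2 (-0.16) in TC-71. The FLI1 level left by the siRNA was 48.9% for TC-32, 35.9% for TC-71 and 23.5% for A673, and its part in these differences was not tested.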

How the results depend on the processing

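All 10 members stayed called in TC-32 and 6 in A673 under each alternative, and 5 in TC-71 became 4 to 6. The count of members differing between A673 and TC-71, 7, ranged from 5 to 7, and those of the other pairs stayed at 8 and 7. No count of genes moved by over 1.5 times. Of the fold changes of members, 335 kept direction and side of the threshold, and 4 passed it newly, all PRRX1 in TC-71. CDH1 in TC-71, otherwise untested, was called higher with no low-count filter. Leaving out 1 library, the values that changed sign were TWIST1 in TC-71 (-0.066 to 0.012, the last without siFLI1 replicate 3), SNAI1 in A673 (-0.10 to 0.012, the last without siNeg replicate 2) and MARVELD3 in TC-32 (-0.0666, without siFLI1 replicate 2, to 0.43). None of these was past the threshold. With library size alone in A673, ZEB2 (-0.075) and PKP4 (-0.0250) changed sign. Library size alone moved the median of all A673 genes to -0.11 and the part of A673 calls that were higher from 50.1% to 40.9%. JUP in A673 lost its call under 8 of 14 alternatives. Other named list genes that lost a call in A673 were MARVELD3 (6 of 14), CTNNB1 (4 of 14) and GRHL1 (1 of 14). In TC-71 they were CDH20 (5 of 13) and CTBP2 (1 of 13). ZEB2 in TC-71 (0.12) lost its call without siNeg replicate 2. The cause was not tested.

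Same-numbered libraries did not deviate together (correlations from -0.0784 to 0.0422, best with their own number for 1 of 3 in each line), so no pairing by number was seen. With 3 libraries per group, this cannot show that same-numbered libraries were handled apart. With the replicate number as a block, 10 members and 13053 genes were called in TC-32, 5 and 12048 in TC-71, and 6 and 12467 in A673. Depth limits CDH1, CDH2 and TWIST2 in TC-71, and CDH1 and TWIST2 in A673, where a few counts decide the value.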
